A study of Arabidopsis thaliana with 24 samples.

Results

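The 4 genes described here, IBM1 (AT3G07610), RPP7 (AT1G58602), AT3G05410 and AT1G11270 of the thale cress Arabidopsis thaliana, are grouped as genes with heterochromatic introns. They were found by locus in a table of 69289 features, of which 32961 are nuclear genes, and all 4 have a row there. Transposable element rows that lie wholly inside a member were added, 18 in all, with 16 in RPP7, 1 in AT3G05410 and 1 in AT1G11270. IBM1 holds no element row. The table gives DNA methylation, so chromatin itself was not measured.

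DNA methylation was measured by bisulfite sequencing of sorted Col-0 nuclei from plants named ago5, ago9, ago59 and wt21. The labels do not spell out alleles, and by its name ago59 carries both mutations. Sperm nuclei were taken from pollen of plants of 35 days, 50000 per replicate, and stem-cell nuclei were sorted for mCherry from seedlings of 7 days, 3000 to 4000 per replicate. Of the 24 samples 16 are of stem-cell nuclei, 8 of them a second sequencing of another, and whether the stem values draw on all 16 is not stated. The labels give 2 replicates a group, but the table has 1 column per genotype, cell type and context, called a pool here. There is therefore no spread between replicates for any value, and all intervals are 95% intervals that cover counting error only. Intervals and Fisher's tests treat calls as independent, although calls on 1 read are linked, so intervals can be too narrow. Sperm and stem nuclei also differ in tissue, age and number of nuclei, which cannot be told apart from cell type.

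Plants methylate cytosine in 3 contexts, CG, CHG and CHH, where H is any base but G. MET1 copies CG methylation, CMT3 maintains CHG methylation together with the histone methyltransferase SUVH4, and CHH methylation is set by small RNA-directed and other pathways. Genes transcribed through a heterochromatic intron depend on proteins such as IBM2, EDM2 and EDM3 to give the full-length transcript. ARGONAUTE proteins bind small RNAs, and some of them guide DNA methylation. IBM1 is a jumonji-domain histone demethylase that keeps CHG methylation out of genes. RPP7 is a disease resistance protein with NB-ARC and LRR domains that acts against downy mildew. AT3G05410 encodes a PsbP family protein and AT1G11270 an F-box protein, by the annotation.

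The genes differ in where the repeat lies. All positions are on TAIR10, where the deposited coordinates of the 4 genes equal those of the reference annotation. IBM1 spans chr3:2425884-2433113 on the plus strand with 16 exons, and its longest intron is the seventh, chr3:2429125-2431098, of 1974 bp. Of its 3 annotated transcripts, 1 ends inside that intron. AT3G05410 spans chr3:1554673-1561535 on the plus strand, and its intron 2 takes 5748 bp, 83.8% of the gene, and 2 of its 3 annotated transcripts end there. This intron holds the element AT3TE06550, chr3:1555420-1560680, which runs against the gene. RPP7 spans chr1:21746354-21766048 on the plus strand. Its intron 1 of 7384 bp holds the element AT1TE71775, chr1:21748194-21753388, and 9 of the other elements lie mainly in intron 2. AT1G11270 spans chr1:3780386-3787099 on the minus strand, and its intron 2 of 4999 bp is nearly filled by the element AT1TE12295, chr1:3780765-3785721. AT1G11270 shares 438 bases with its neighbour AT1G11260, so calls there count for both genes.

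**Figure D1:**
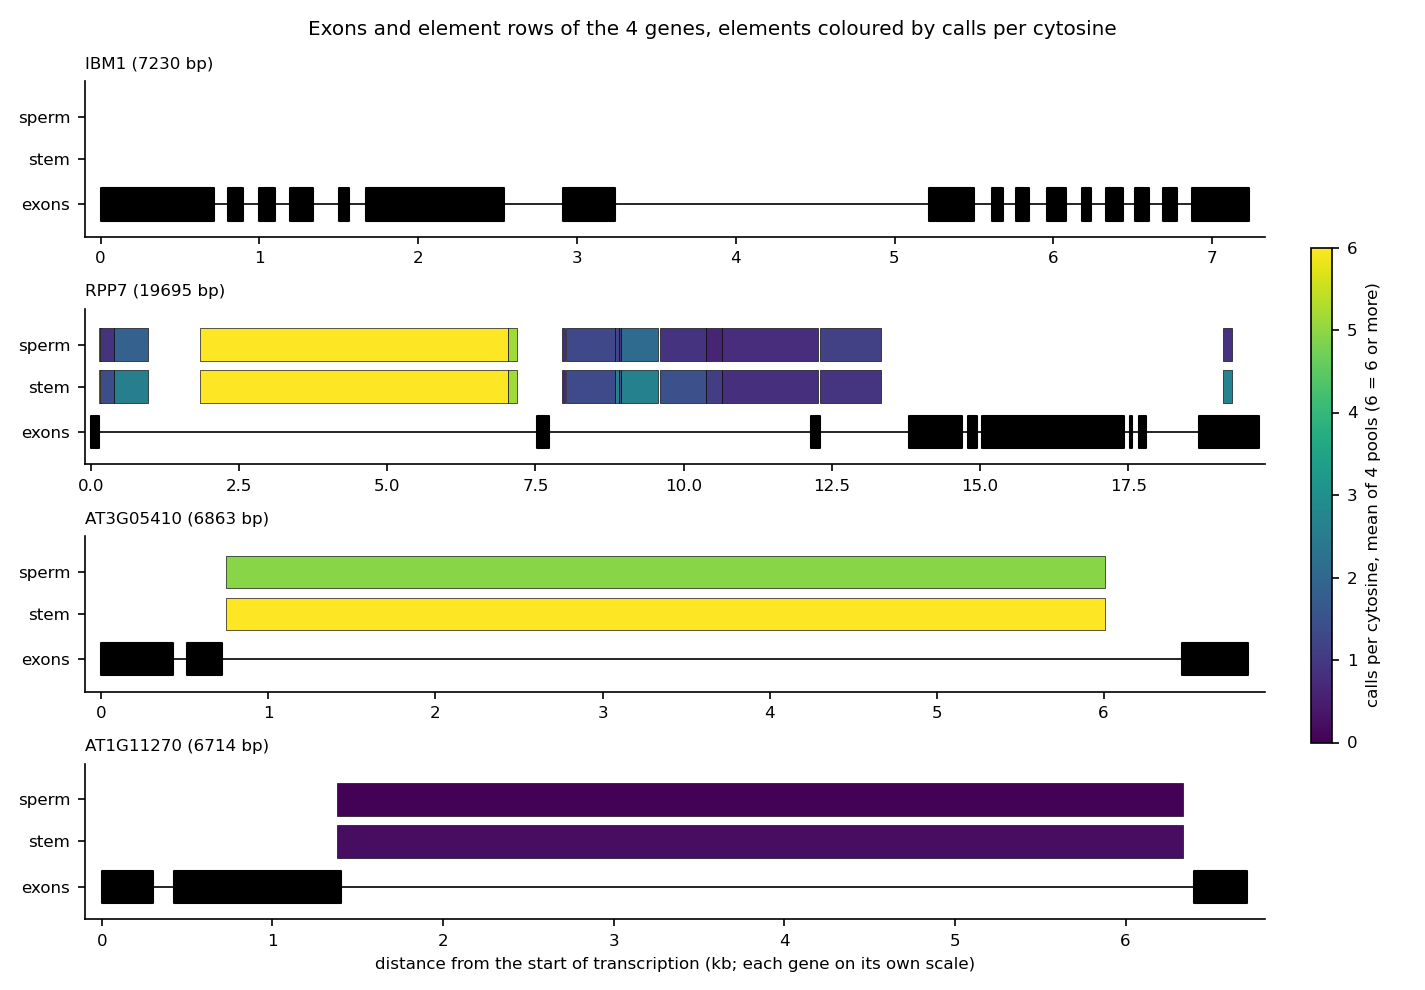
Gene maps of the 4 members, with exons as black boxes and element rows as coloured boxes above them, against distance from the start of transcription in kb. Colour gives calls per cytosine over the 3 contexts and 4 pools of sperm (upper boxes) and stem (lower boxes). The element of AT1G11270 is dark, near 0, while the long elements of RPP7 and AT3G05410 are lighter.

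The ends of the longest elements differed between the genes, and their bearing on where reads can be placed was not tested. AT1TE12295 has terminal repeats of 440 bp that are 100% identical, and the 5 bases CTTGT stand on both sides of it. AT1TE71775 has terminal repeats of 423 and 429 bp that are 98.4% identical, and no flanking repeat was found. In AT3TE06550 no terminal repeat was found. Its left end on the plus strand is a run of 16 T, or 21 T with the flank. The element lies on the minus strand, so this run stands at its end, as A. The junctions are shown, on the plus strand of the RefSeq TAIR10.1 sequence, with 12 bases of flank and 30 bases of element. Capitals mark the flanking repeat of AT1TE12295. Ends were taken from the terminal repeats where these were found. The first capital base at the right of AT1TE12295 is therefore the last base of the annotated element.
AT1TE12295 left, chr1:3780753-3780794: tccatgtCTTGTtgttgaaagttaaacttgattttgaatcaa
AT1TE12295 right, chr1:3785691-3785732: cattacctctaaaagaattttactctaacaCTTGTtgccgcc
AT1TE71775 left, chr1:21748182-21748223: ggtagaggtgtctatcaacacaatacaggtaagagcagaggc
AT1TE71775 right, chr1:21753359-21753400: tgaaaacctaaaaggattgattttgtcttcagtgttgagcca
AT3TE06550 left, chr3:1555408-1555449: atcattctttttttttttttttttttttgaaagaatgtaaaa
AT3TE06550 right, chr3:1560651-1560692: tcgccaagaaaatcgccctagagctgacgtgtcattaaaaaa

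Reference copy number separated the elements as well. Of the 50-base words of AT1TE12295, 0.0204% occur once in the genome on either strand, with a median of 7 copies. The share was 88.0% for AT1TE71775 and 83.2% for AT3TE06550, and 100% for the whole IBM1 gene. Among 1235 nuclear elements longer than 4000 bp, AT1TE12295 had few calls per base, at percentile 2.19 to 2.27 in the sperm pools and 2.59 to 3.16 in the stem pools. AT1TE71775 was at percentile 89.3 to 92.6 in sperm and 68.9 to 78.1 in stem.

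In the whole table, each sperm pool held between 204779091 and 228311583 calls and each stem pool between 233474571 and 303354876. A level is the share of calls that were methylated. Chloroplast DNA, which is taken as unmethylated, gave a CHH level of 1.34% in ago5, 4.56% in ago9, 1.06% in ago59 and 1.37% in wt21 sperm, over 18577 to 32063 calls. It gave 0.303% to 0.312% in the stem pools. The median nuclear gene had a CHH level of 0.749% to 0.862% in the sperm pools, below the chloroplast level of each. Correction by chloroplast CHH thus puts the median gene below 0 in sperm. The mCherry reporter row has 0 calls in all 8 pools, so it does not check the sort. The AGO5 row had CG levels of 0.936% to 4.14% and the AGO9 row of 2.16% to 4.41%, and a level says nothing of the allele.

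IBM1 was methylated mainly in CG. Its CG level was 25.8% in ago5, 26.2% in ago9, 27.9% in ago59 and 28.9% in wt21 sperm. In stem pools it was 22.1% in ago5, 19.8% in ago9, 23.6% in ago59 and 23.7% in wt21. Each sperm pool was above every stem pool. The intervals of ago5 and ago9 sperm (24.0% to 27.8% and 24.4% to 28.0%) overlapped those of ago59 and wt21 stem (21.8% to 25.6% and 22.0% to 25.4%). The CHG level of IBM1 ran from 1.67% to 3.12% in sperm and from 0.997% to 1.79% in stem. Its CHH level ran from 0.689% to 0.911% in sperm and from 0.477% to 0.626% in stem. In wt21 sperm the CG level of IBM1 stood at percentile 80.8 of 32289 nuclear genes.

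The row of IBM1 does not place these calls along the gene. The gene holds 146 CG pairs, of which 44, or 30.1%, lie in intron 7. The 200-base window of that intron shown here holds 11 CG pairs, in capitals, and lies at chr3:2429871-2430070 on the plus strand of TAIR10.1. It is shown as the window of the intron with the most CG pairs, whose level the gene row averages with that of the exons.
IBM1 intron 7: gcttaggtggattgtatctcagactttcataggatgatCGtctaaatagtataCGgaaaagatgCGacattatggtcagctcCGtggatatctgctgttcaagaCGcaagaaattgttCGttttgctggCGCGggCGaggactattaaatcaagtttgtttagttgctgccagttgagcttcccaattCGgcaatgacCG
Every 50-base word of this intron occurs once in the genome. Over 24 values (8 pools and 3 contexts) the genes closest to IBM1 were AT4G19180, AT2G33051 and AT3G02060, at a root mean square difference of 1.02 to 1.03 points, and none holds an element row.

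RPP7 and AT3G05410 were methylated in all 3 contexts, and AT1G11270 had low levels. The CG level of RPP7 was 53.0% in ago5, 56.1% in ago9, 54.4% in ago59 and 57.9% in wt21 sperm, against 39.4% in ago5, 38.7% in ago9, 40.0% in ago59 and 45.3% in wt21 stem. That of AT3G05410 was 52.5% in ago5, 54.1% in ago9, 51.2% in ago59 and 55.7% in wt21 sperm. In stem it was 48.03% in ago5, 41.2% in ago9, 50.9% in ago59 and 46.3% in wt21. All sperm pools were above all stem pools in both genes, by a narrow margin in AT3G05410, where ago59 sperm and ago59 stem had overlapping intervals. The CG level of AT1G11270 was between 1.35% and 2.57% in sperm and between 0.405% and 1.58% in stem.

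In CHG, RPP7 had 38.0% in ago5, 40.3% in ago9, 37.4% in ago59 and 41.7% in wt21 sperm, against 36.4% in ago5, 37.6% in ago9, 37.5% in ago59 and 39.1% in wt21 stem. AT3G05410 had 42.0% in ago5, 44.7% in ago9, 40.3% in ago59 and 47.7% in wt21 sperm. In stem AT3G05410 had 36.2% in ago5, 34.7% in ago9, 38.6% in ago59 and 34.7% in wt21. The groups of sperm and stem pools overlapped in RPP7 and did not in AT3G05410. AT1G11270 stayed between 0.474% and 2.21% in CHG over all pools. In wt21 the CHG levels of RPP7 and AT3G05410 stood at percentiles 96.4 and 97.3 of all nuclear genes in sperm and 97.3 and 96.7 in stem.

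By calls of the gene row, CHH ran the other way between the cell types in RPP7, AT3G05410 and AT1G11270. RPP7 had 2.68% to 3.30% in sperm and 3.83% to 4.65% in stem. AT3G05410 had 2.89% to 3.32% in sperm and 6.01% to 7.24% in stem. AT1G11270 had 1.04% to 1.60% in sperm and 2.05% to 2.58% in stem. The sperm and stem pools did not overlap in any of these genes. All had levels below the chloroplast CHH level of 4.56% in ago9 sperm, and AT1G11270 (1.04%) was also below that of ago5 sperm (1.34%). The element of AT1G11270 gave 1.83% to 2.10% of its CHH calls in sperm and 7.71% to 9.39% in stem. The rest of AT1G11270 was not higher in stem, so no direction is read from its gene row. In IBM1 the sperm pools were higher, but at levels below the chloroplast CHH level of the same pool. After correction by chloroplast CHH the sign turned in 4 of 4 genotypes, but the corrected sperm levels were below 0, at -4.05% to -0.365%. No direction is therefore read from IBM1 in CHH.

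**Figure D2:**
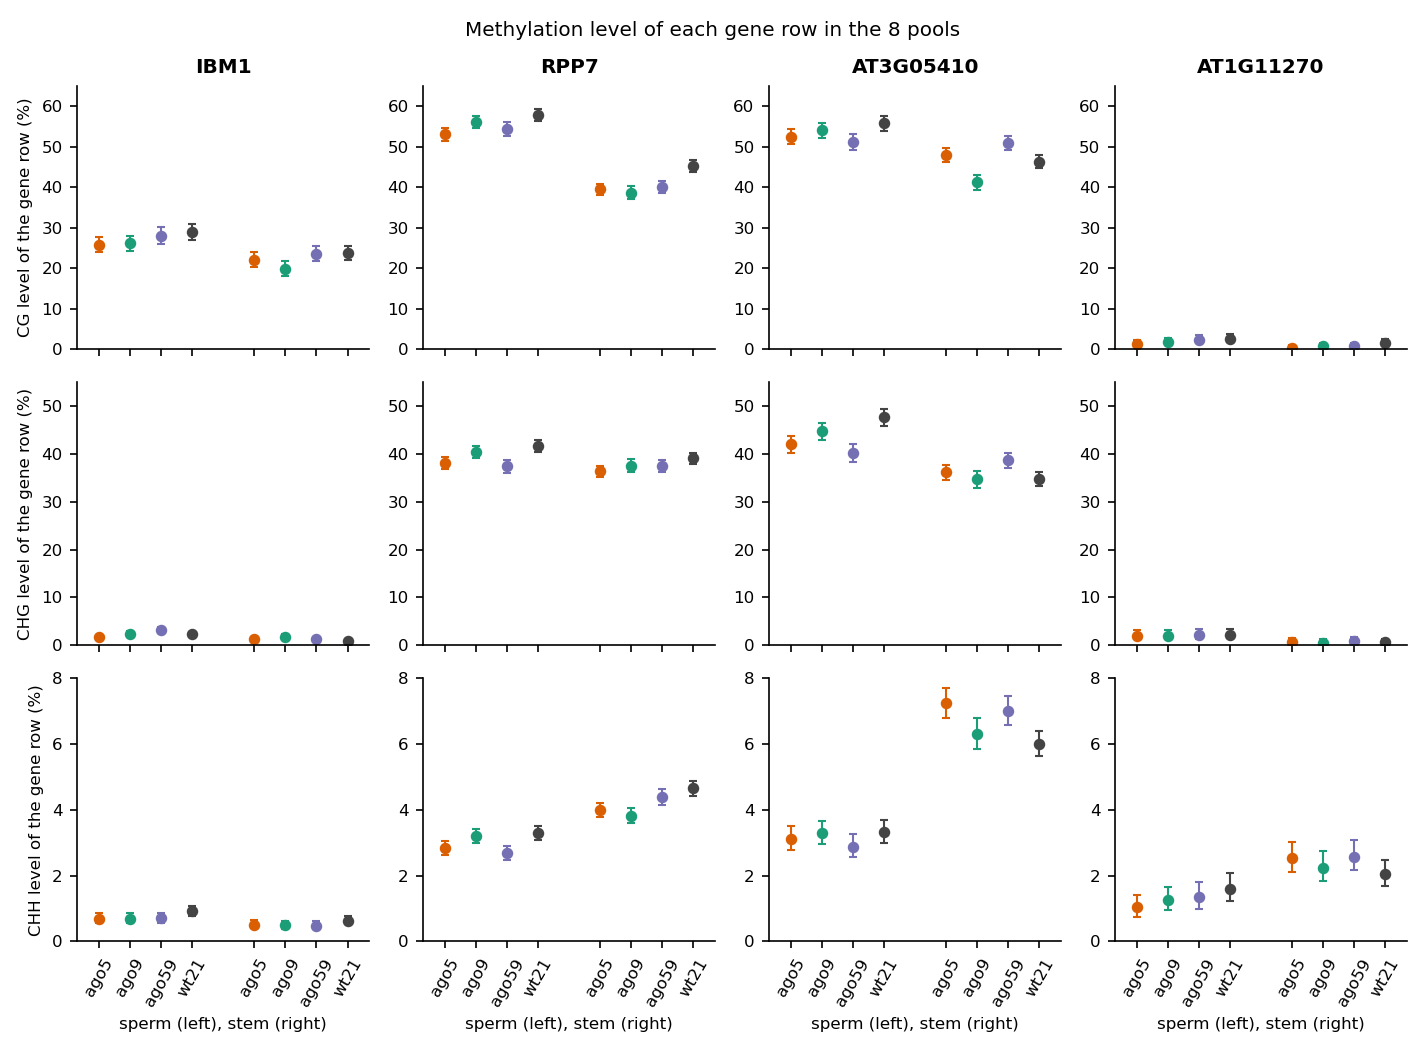
Level of each gene row in percent (vertical axes, from 0) in the ago5, ago9, ago59 and wt21 pools of sperm and then of stem, with Wilson 95% intervals, by context in rows. RPP7 and AT3G05410 lie between 38.7% and 57.9% in CG, IBM1 between 19.8% and 28.9%, and AT1G11270 at or under 2.57%.

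RPP7 and AT3G05410 were alike across the 24 values. Each was the nearest of 30893 nuclear genes to the other, at a root mean square difference of 3.84 points, and AT5G48860 came next for both, at 5.15 and 5.62 points. All values share the same 8 pools, so this is a description of the levels. The genes nearest to AT1G11270 were HPL1 (AT4G15440), AT1G09925 and AT5G13200, at 0.671 to 0.746 points.

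The level of a gene row mixes the elements inside it with the rest of the gene, and these were taken apart by subtracting the calls of the elements. In AT3G05410 the element AT3TE06550 had a CG level of 96.9% in ago5, 97.1% in ago9, 96.8% in ago59 and 96.8% in wt21 sperm. In stem it had 85.9% in ago5, 84.7% in ago9, 83.9% in ago59 and 84.3% in wt21. The rest of AT3G05410 had at most 1.15% in CG and at most 2.04% in CHG in any pool. The difference between element and rest in wt21 was 96.1 points in CG (94.98 to 96.9) and 63.1 points in CHG (60.9 to 65.1) in sperm, and 84.2 (82.6 to 85.7) and 49.8 points (47.9 to 51.6) in stem. The measured methylation of AT3G05410 thus lay in its intronic element in both cell types.

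RPP7 differed from this in the rest of the gene. Its 15 elements that do not overlap each other, of which AT1TE71840 lies in an exon, had a CG level of 96.0% in ago5, 96.3% in ago9, 96.5% in ago59 and 96.7% in wt21 sperm. In stem they had 82.6% in ago5, 82.8% in ago9, 85.2% in ago59 and 86.8% in wt21. The rest of RPP7 had 29.7% in ago5, 30.8% in ago9, 30.4% in ago59 and 32.4% in wt21 sperm, against 19.6% in ago5, 18.8% in ago9, 17.2% in ago59 and 24.3% in wt21 stem. In wt21 the difference between elements and rest was 64.3 points in CG (62.1 to 66.3) and 45.5 in CHG (43.3 to 47.6) in sperm. It was 62.5 (60.05 to 64.7) and 56.7 points (54.8 to 58.6) in stem. As an unweighted mean over elements the CHG gap in wt21 stem was 24.9 points, and AT1TE71775 gives most of the calls. The rest of the gene includes intron sequence without an element row.

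Among the 2139 nuclear genes with elements wholly inside, such a gap was not usual. The median difference in CHG between elements and rest was -0.183 points over 1405 measured genes in wt21 sperm and -0.144 over 1482 in wt21 stem. RPP7 stood at percentile 97.6 in sperm and 98.9 in stem, and AT3G05410 at 99.6 and 97.9. In CG the median was -0.372 points in sperm, and RPP7 and AT3G05410 stood at percentiles 87.5 and 98.8.

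**Figure D3:**
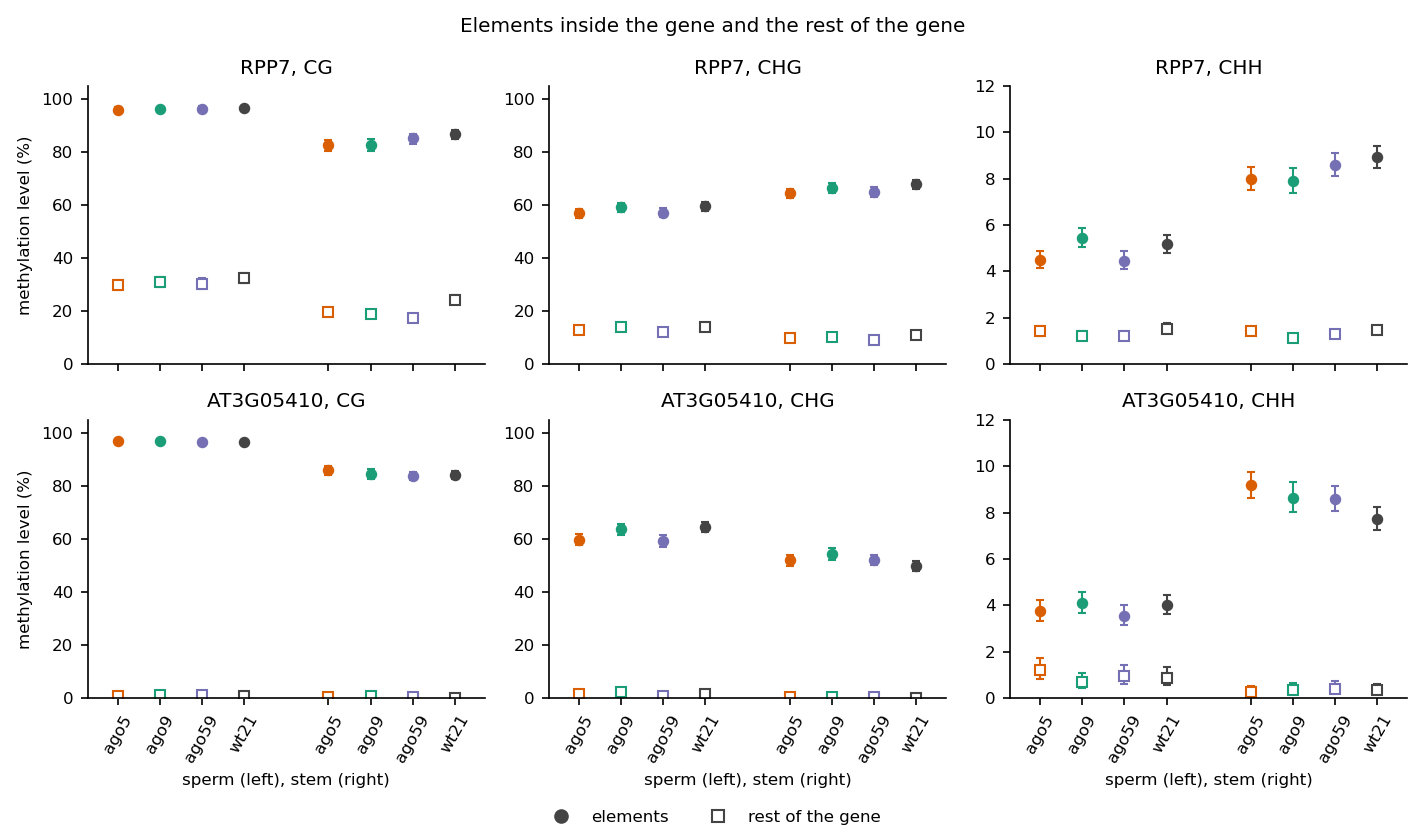
Level in percent (vertical axes, from 0) of the elements inside the gene (filled circles) and of the rest of the gene (open squares) of RPP7 and AT3G05410, in the ago5, ago9, ago59 and wt21 pools of sperm and then of stem, with Wilson 95% intervals. The rest of RPP7 keeps 17.2% to 32.4% in CG, while the rest of AT3G05410 lies at or under 1.15%.

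AT1G11270 could not be read in this way, and the CG level of its gene row neither shows nor goes against a methylated intron. The element AT1TE12295 holds 69.0% of the CG cytosines of the gene, counted on both strands of the reference, but 0 of its CG calls in the 4 sperm pools and at most 0.568% in the stem pools. Of the CG calls in the element, 1 of 1 was methylated in ago5, 4 of 5 in ago9, 3 of 3 in ago59 and 4 of 4 in wt21 stem. There were thus too few to set a level, and the CG level of the gene row describes the sequence outside the element.

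CHH was the context with most calls in AT1TE12295. Its CHH level was 5.33% in ago5 (4 of 75 calls), 8.54% in ago9, 25% in ago59 (15 of 60 calls) and 16.2% in wt21 sperm. In stem it was 24.8% in ago5, 18.1% in ago9, 27.9% in ago59 and 21.7% in wt21, over 364 to 400 calls. The rest of AT1G11270 had 0.900% to 1.32% in sperm and 0.328% to 0.598% in stem. These sperm levels lie below the chloroplast CHH level of each pool and the stem levels above it, so no direction is read from them. The gene row, where the element gave 1.83% to 2.10% of CHH calls in sperm and 7.71% to 9.39% in stem, was higher in stem by calls. Within the transposable element gene AT1G11265, which takes 4059 bases of AT1TE12295, there were 0 calls in sperm and 4 to 18 CHH calls in stem, so nearly all CHH calls of the element lay outside that gene. AT1G11265 holds 236 of the 236 CG, 70 of the 72 CHG and 1312 of the 1566 CHH cytosines of the element. The CHH level of the element thus describes mainly its sequence outside AT1G11265.

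The comparisons of ago5, ago9 and ago59 with wt21 ask whether loss of these ARGONAUTE proteins changed methylation of the 4 genes. A difference was counted when it reached 10 points with at least 10 calls in both pools. In sperm, 0 of 12 differences in CG, 0 of 12 in CHG and 0 of 12 in CHH reached this, where 1.91%, 1.33% and 0.279% of the differences over all nuclear genes did. In stem it was 0 of 12 in CG, CHG and CHH, against 2.15%, 1.29% and 0.269% over all nuclear genes. The largest shortfall was that of AT3G05410 in CHG in ago59 sperm, a difference of -7.38 points from wt21 sperm. Weighted by reference cytosines it was -4.22 points, and the element gave 67.4% of the CHG calls in ago59 and 73.1% in wt21.

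The smaller differences leaned one way in sperm. Of the 36 differences in sperm 34 were below 0, and the intervals of 15 left out 0. After correction by chloroplast CHH 32 of 36 were below 0. In RPP7 and AT3G05410, 18 of 18 were below 0 by calls and 13 of 18 with weights by reference cytosines. In stem 21 of 36 were below 0 and 14 intervals left out 0. The shares of all nuclear genes below 0 or with such intervals were not computed, so the lean is not read as a trait of these genes. All comparisons of a cell type share the wt21 pool, so they are not independent, and the spread between replicates is unknown. The median difference over all nuclear genes was between -0.116 and 0 points in these comparisons. Over all nuclear elements in sperm, the median CHG difference was -1.15 in ago5, 0 in ago9 and -1.59 points in ago59.

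Part of these gene-row differences came with a changed share of calls from the element. In stem the CG level of AT3G05410 was 41.2% in ago9 and 50.9% in ago59, compared with 46.3% in wt21, differences of -5.06 (-7.49 to -2.61) and 4.64 points (2.27 to 7.00). The element itself differed by 0.425 (-2.12 to 2.89) and -0.394 points (-2.68 to 1.88) in these pools. Its share of the CG calls was 48.3% in ago9 and 60.5% in ago59, compared with 54.9% in wt21. With element and rest weighted by their cytosines in the reference, the differences of AT3G05410 were 0.450 in ago9 and -0.138 points in ago59. In sperm the CG level of AT3G05410 differed from wt21 by -3.27 points in ago5 and -4.59 in ago59, and by 0.0261 and 0.0293 points with these weights. The element differences in stem were small, with intervals that held 0, and ran against those of the gene row.

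In sperm, the CHG level of AT3TE06550 was 59.8% in ago5, 63.6% in ago9 and 59.4% in ago59, compared with 64.6% in wt21. The differences were -4.82 in ago5 (-7.73 to -1.90), -0.976 in ago9 (-3.80 to 1.84) and -5.19 points in ago59 (-8.20 to -2.19). By Fisher's exact test of the pooled calls, with Benjamini-Hochberg adjustment over all nuclear features, the adjusted p was 0.0572 for ago5, 1 for ago9 and 0.0348 for ago59. In stem the element had 51.9% in ago5, 54.3% in ago9 and 52.0% in ago59, compared with 49.8% in wt21, so all 3 mutants were above wt21. In these comparisons the test compares 2 pools and not the genotypes. The median CHG difference over all nuclear elements in sperm, given above, was also below 0 in ago5 and ago59.

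In stem, the rest of RPP7 was lower in CG in all 3 mutants. The differences from wt21 were -4.67 in ago5 (-6.78 to -2.56), -5.48 in ago9 (-7.66 to -3.29) and -7.08 points in ago59 (-9.20 to -4.94). In sperm they were -2.76 in ago5 (-5.42 to -0.0916), -1.65 in ago9 and -2.09 points in ago59, and the intervals of ago9 and ago59 held 0.

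Among the element rows, differences past 10 points were counted in the same way. In sperm they were 2 of 28 in CG, 7 of 24 in CHG and 4 of 48 in CHH, against 10.2%, 21.3% and 8.85% over all nuclear elements. In stem they were 4 of 33 in CG, 10 of 28 in CHG and 12 of 50 in CHH, against 21.5%, 21.8% and 9.89%. The members' share was near that of all elements in CHH in sperm and above it in CHH in stem. Of the 12 in CHH in stem, 11 were lower in the mutant. The elements are neighbours, AT1TE71815 lies inside AT1TE71810, and all share the same wt21 stem pool.

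All 11 lower CHH differences in stem lay in the second intron of RPP7, and 3 of them were in a single element. The element AT1TE71825, chr1:21757000-21758625, overlaps exon sequence by 117 bases and had a CHH level of 3.07% in ago5 (228 calls), 4.41% in ago9 (227 calls) and 6.67% in ago59 (225 calls), against 22.9% in wt21 stem (179 calls). The differences were -19.8 (-26.7 to -13.5), -18.5 (-25.5 to -11.9) and -16.2 points (-23.4 to -9.37), with adjusted p of 1.07e-07, 2.65e-06 and 0.000219 by Fisher's exact test of the calls. The wt21 stem pool was the only one above 10%, since sperm pools had 1.16% in ago5, 6.22% in ago9, 1.87% in ago59 and 7.00% in wt21. The result thus rests on 1 pool. The number of reads behind its 179 calls, over 275 CHH cytosines of the element, is not known. Calls on 1 read are not independent, so the adjusted p of Fisher's exact test can overstate the certainty. AT1TE71810 had 14.1% in ago5, 8.02% in ago9 and 4.20% in ago59, compared with 17.1% in wt21 stem, and there the adjusted p was 0.801, 0.0913 and 5.70e-05 by Fisher's exact test. In sperm AT1TE71810 had 2.15% in ago5, 6.06% in ago9 and 0.730% in ago59, compared with 10.5% in wt21. AT1TE71825 and the other element rows named here beyond the longest of each gene were chosen after their values were seen.

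The third intron of RPP7 gave a different order. AT1TE71830, chr1:21758660-21759682, had a CHH level of 47.4% in ago5, 23.5% in ago9 and 23.4% in ago59, compared with 40.9% in wt21 sperm. The differences of ago9 and ago59 were -17.4 (-24.7 to -9.75) and -17.6 points (-25.5 to -9.09), with adjusted p of 0.000694 and 0.00304 by Fisher's exact test. That of ago5 was 6.47 points (-2.16 to 15.0). The element had 197 to 293 CHH calls in the sperm pools over 204 CHH cytosines, so the same limit on linked calls holds. Its CHG level was 20.8% in ago5, 33.3% in ago9 and 11.4% in ago59, compared with 52.2% in wt21 sperm, over 24 to 54 calls. In stem its CHH level was 18.8% in ago5, 18.5% in ago9 and 29.9% in ago59, compared with 17.8% in wt21. There ago59 was the highest pool, and the intervals of the ago5 and ago9 differences from wt21 held 0.

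**Figure D4:**
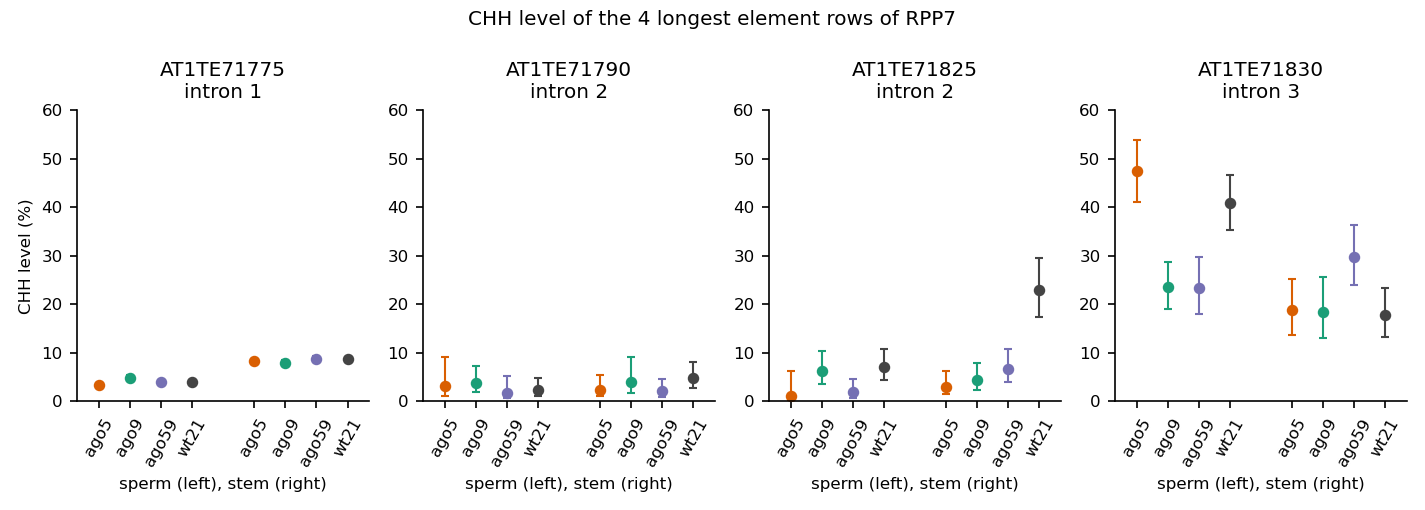
CHH level in percent (vertical axis, from 0) of the 4 longest element rows of RPP7 in the ago5, ago9, ago59 and wt21 pools of sperm and then of stem, with Wilson 95% intervals. The wt21 stem pool of AT1TE71825 stands at 22.9%, above the other 7, and AT1TE71830 lies at 17.8% to 47.4%.

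Depth differed between the introns of RPP7. The elements of intron 2 had 0.646 to 1.40 CHH calls per cytosine in sperm and 1.24 to 1.49 in stem, and the element of intron 3 had 0.966 to 1.44 and 0.716 to 1.05. Those of intron 1 had 5.31 to 6.18 in sperm and 4.95 to 6.98 in stem, or 1.86 to 3.22 and 2.18 to 3.601 without AT1TE71775. Their GC contents were 26.9% in intron 2, 32.0% in intron 3 and 40.3% in intron 1, or 29.4% there without AT1TE71775. Of the 50-base words of AT1TE71825 and AT1TE71830, 99.8% and 100% occur once in the genome. The part of depth and base composition in the levels was not tested. The row AT1TE71840 lies in exon 9 and had at most 1 methylated call in any pool and context.

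With ago59 set against ago5 and ago9, gene-row differences ran from -4.46 to 2.09 points in sperm and from -0.465 to 9.69 points in stem. The largest was the CG level of AT3G05410 in ago59 against ago9 stem, the pair of pools with the unlike shares of element calls given above.

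Sperm and stem nuclei were then compared within each genotype. In CG the 4 genes were higher in sperm in 16 of 16 differences, and 14 intervals left out 0. After correction by chloroplast CHH 4 of the 16 turned, namely AT1G11270 in ago5, ago9 and wt21 and AT3G05410 in ago59. The median over all nuclear genes was also higher in sperm, by 0.953 to 1.02 points. RPP7 was higher by 13.6 in ago5 (11.4 to 15.8), 17.4 in ago9 (15.2 to 19.7), 14.4 in ago59 (12.2 to 16.7) and 12.5 points in wt21 (10.4 to 14.7). In all, 5 of 16 reached 10 points, RPP7 in each genotype and AT3G05410 in ago9, where 8.01% of the differences over all nuclear genes did, so 4 of the 5 come from a single gene. With weights by reference cytosines RPP7 in wt21 (9.21 points) and AT3G05410 in ago9 (8.63 points) no longer reached it. In CHG 2 of 16 reached it, AT3G05410 in ago9 and wt21, against 2.57% over all nuclear genes. In CHH 0 of 16 did, against 0.616%. With stem CHH levels of at most 7.24%, sperm could not be lower by 10 points.

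Of the elements, 24 of 38 differences between sperm and stem reached 10 points in CG, all of them higher in sperm, where 52.4% did over all nuclear elements. In CHG 18 of 34 did, 12 of them higher, against 28.1%. In CHH 13 of 65 did, 3 of them higher, against 13.9%.

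The long elements of RPP7 and AT3G05410 differed in opposite directions in CHG. AT1TE71775 had 58.3% in ago5, 60.9% in ago9, 59.1% in ago59 and 61.4% in wt21 sperm, against 68.5% in ago5, 70.3% in ago9, 68.1% in ago59 and 71.3% in wt21 stem. It was thus lower in sperm in 4 of 4 genotypes, by -10.2 (-12.7 to -7.78), -9.41 (-12.0 to -6.82), -9.04 (-11.6 to -6.46) and -9.89 points (-12.2 to -7.55). AT3TE06550 was higher in sperm in 4 of 4 genotypes, by 7.86 in ago5 (4.92 to 10.8), 9.30 in ago9 (6.20 to 12.4), 7.40 in ago59 (4.38 to 10.4) and 14.8 points in wt21 (12.1 to 17.4). Over these 8 pairs of pools the highest adjusted p was 0.000200, for AT3TE06550 in ago59, by Fisher's exact test of the calls.

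The direction of AT1TE71775 was uncommon for its length class. Among the nuclear elements longer than 4000 bp with calls, 5.81% to 18.5% were lower in CHG in sperm, depending on the genotype, and the median difference was 2.88 to 5.79 points. AT1TE71775 stood at percentile 0.748 in ago5, 0.580 in ago9, 0.830 in ago59 and 0.0830 in wt21. AT3TE06550 stood at percentile 90.3 in ago5, 86.8 in ago9, 86.7 in ago59 and 98.1 in wt21. In CG both elements were higher in sperm, AT1TE71775 by 6.37 to 10.5 points and AT3TE06550 by 11.0 to 12.9, both below the medians of 13.5 to 14.5 points. In CHH both were lower in sperm, AT1TE71775 by -4.82 to -3.04 and AT3TE06550 by -5.43 to -3.72 points, against medians of -4.65 to -4.39. AT1TE71775 was at percentile 9.19 in ago5, 13.6 in ago9, 6.45 in ago59 and 7.27 in wt21 in CG, and at 40.9 to 79.4 in CHH. The transposable element gene AT1G58561, which makes up 4572 of its bases, had 58.1% to 61.2% in CHG in sperm and 67.8% to 70.9% in stem.

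The gene row of RPP7 did not show this. Its CHG level was higher in sperm by 1.66 in ago5 (-0.0665 to 3.38), 2.73 in ago9 (0.887 to 4.57) and 2.62 points in wt21 (0.905 to 4.34), and differed by -0.151 in ago59 (-1.95 to 1.65). The elements together were lower in sperm by -7.57 in ago5, -7.12 in ago9, -7.85 in ago59 and -8.28 points in wt21, while the rest of RPP7 was higher by 2.93 to 3.98 points. The other elements of intron 1 differed by 9.89 in ago5, 8.5 in ago9, 18.5 in ago59 and 5.65 points in wt21, and of these intervals that of ago59 left out 0. Those of intron 2 differed by 4.58 in ago5, 9.39 in ago9, -2.73 in ago59 and 7.63 points in wt21, with intervals that all held 0. The element of intron 3 differed by -28.0 in ago59 and 25.9 points in wt21. A lower CHG level in sperm in all 4 genotypes was thus that of AT1TE71775 and not of these other groups of elements. The elements gave 56.1% to 60.9% of the CHG calls in sperm and 48.6% to 50.9% in stem. With elements and rest weighted by their cytosines in the reference, RPP7 was lower in sperm, by -3.52 in ago5, -2.90 in ago9, -3.70 in ago59 and -4.02 points in wt21. The sign of the gene-wide CHG difference of RPP7 thus depended on the weights. The sum over elements did so too, since AT1TE71775 gives most of its calls. As an unweighted mean over the elements, CHG was higher in sperm by 0.737 in ago5, 4.93 in ago9 and 11.0 points in wt21, and differed by -0.491 in ago59.

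**Figure D5:**
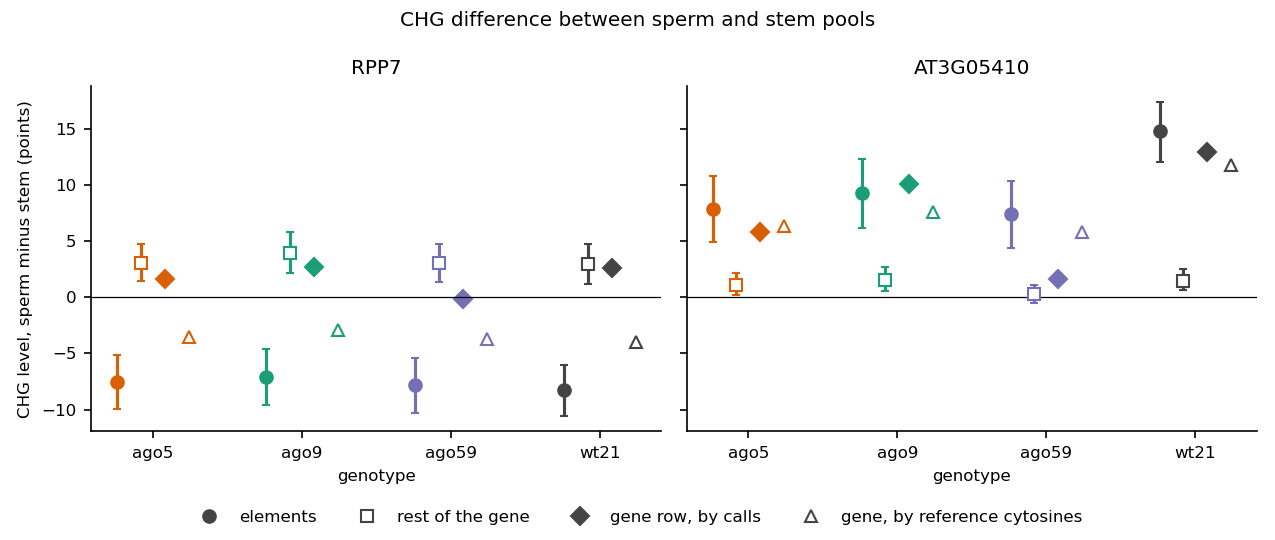
CHG level in sperm minus stem, in percentage points (vertical axis), for each genotype, in RPP7 and AT3G05410: elements and rest of the gene with Newcombe 95% intervals, the gene row by calls, and the gene weighted by reference cytosines. The elements of RPP7 lie between -8.28 and -7.12 points and that of AT3G05410 between 7.40 and 14.8.

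Genes of the machinery that reads or keeps such introns were looked at as a list of 9, namely IBM2, EDM2, EDM3, SUVH4, SUVH5, SUVH6, CMT3, MET1 and DDM1. In wt21 sperm their CG levels ran from 1.30% to 60.2% with a median of 34.1%, and in wt21 stem from 0.230% to 49.1% with a median of 27.2%. In wt21 their CHG levels were at most 1.67% in sperm and 0.984% in stem, so none had the CHG methylation of RPP7 or AT3G05410. Against wt21, 1 of 27 differences reached 10 points in CG in sperm and 0 of 27 in stem, where 1.91% and 2.15% did over all nuclear genes, and 0 of 27 did in CHG and in CHH in each cell type. With wt21 levels of at most 1.67% in CHG and 1.38% in CHH, a loss of 10 points was not possible in these contexts. Between sperm and stem, 3 of 36 reached it in CG, all higher in sperm, near the 8.01% over all nuclear genes, and 0 of 36 in CHG and in CHH.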

How the data were processed

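Per the file headers, the deposited table holds whole-number counts of cytosine calls, methylated and total, for every annotated feature and pool, without normalization. The 24 deposited columns of fractions were not used. Trim Galore, Bismark, bedtools 2.30.0 and TAIR10 are listed in the submitters' processing notes, which do not say whether replicates and runs were summed. All 48 columns of calls were used. Labels list the molecule as RNA, against their own DNA protocol. The members and lists were chosen with earlier results of these data known.

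Levels have Wilson 95% intervals and differences Newcombe's. As no replicates could be separated, no test across samples was run. Elements wholly inside a member were summed without overlap and subtracted from the gene. Cytosines and 50-base words were counted on both strands of TAIR10.1. Named items are the 4 members, their elements, the 9 listed genes, AGO5, AGO9 and the 3 nearest genes per member with at least 20 calls. Alternatives were minimums of 5 and 20 calls, limits of 5 and 20 points, Fisher's exact test at an adjusted p of 0.05, centring on the median, correction by chloroplast CHH, elements at least 50% inside, unweighted element means and Clopper-Pearson intervals. Weighting by reference cytosines and a minimum of 100 calls were added after seeing the data. Scripts were tested on simulated data (Python 3.11.15, numpy 2.4.6, scipy 1.17.1, pandas 2.3.3).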

Additional observations from a re-analysis of the deposited data

Results flagged for a closer look

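In 4 of 44 feature and context pairs with calls in every pool, ago5, ago9 and ago59 were all on one side of wt21 in sperm and all on the other side in stem. The difference between the cell types was not tested, since each group is 1 pool, and each set shares the wt21 pools. The share of all nuclear features with such a pattern was not computed, so the count is not read as a trait of these features. In each pair the mutants were lower in sperm and higher in stem. For the CHG level of AT3TE06550 in AT3G05410, the difference from wt21 in sperm minus that in stem was -6.92 in ago5, -5.48 in ago9 and -7.38 points in ago59. For the CHH level of AT3G05410 it was -1.42 in ago5, -0.327 in ago9 and -1.43 points in ago59. For the CHH level of AT1G11270 it was -1.05 in ago5, -0.534 in ago9 and -0.790 points in ago59. For the CHH level of AT1TE71805, in intron 2 of RPP7, it was -5.20 in ago5, -3.63 in ago9 and -7.26 points in ago59. After correction by chloroplast CHH, ago59 sperm was above wt21 sperm by 0.0372 points in AT1G11270 and by 0.105 points in AT1TE71805. The signs of AT3TE06550 and AT3G05410 stayed. The CHH difference of AT3G05410 in ago9 sperm moved from -0.0303 to -3.31 points. The correction puts the median gene below 0 in sperm, so it does not decide which CHH patterns hold.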

How the results depend on the processing

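No paired analysis was possible because the table holds 1 column per group, so leaving out a replicate was not run either. AT1TE12295 had 0 CG calls in sperm, so no setting gives it a CG level there. The rest of AT1G11270 had 7.69 to 9.32 calls per CG cytosine in the same pools. The reason was not tested.

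For the 4 genes, a limit of 5 points gave 2 differences from wt21 in CHG in sperm and 4 in CG in stem, against 0 each, and 8 between sperm and stem in CG, against 5. A limit of 20 points gave 0 in CG and 0 in CHG between sperm and stem. Weighting by reference cytosines, chosen after seeing the data, gave 3 in CG and 1 in CHG there. Centring on the median and chloroplast correction each gave 1 in CHG, against 2. That correction also turned 4 of 36 signs against wt21 in sperm and 11 of 48 between sperm and stem, 6 of them in IBM1, and put the CHH levels of ago9 sperm below 0, at -1.42% in RPP7 and -1.33% in AT3G05410.

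For the elements, a limit of 5 points gave, in CG, CHG and CHH, 5, 11 and 13 in sperm against wt21, 11 in CG and 17 in CHG in stem, and 30 in CHG and 25 in CHH between sperm and stem. A limit of 20 points gave 0, 3 and 1 in sperm, 0, 5 and 2 in stem, and 6, 5 and 7 between sperm and stem. Fisher's exact test as a further condition gave 0, 1 and 2 in sperm, 0 in CG and 0 in CHG in stem, and 2 in CHG between sperm and stem. At least 100 calls, chosen after seeing the data, gave 0, 0 and 2 in sperm, 0, 0 and 6 in stem, and 7, 2 and 4 between sperm and stem. At least 20 calls gave 1 in CG in sperm and 8 in CHH between sperm and stem, at least 5 calls gave 7 in CHH in sperm, and centring gave 8 in CG between sperm and stem.

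An unweighted mean over elements put the gap between elements and rest of RPP7 in wt21 at 56.5 points in CG, 33.0 in CHG and 4.39 in CHH in sperm, and at 46.9, 24.9 and 11.0 in stem. Weighting by reference cytosines turned 11 of 60 signs in RPP7 and AT3G05410, of which 6 had an interval by calls that left out 0. These 6 were RPP7 in CHG between sperm and stem in ago9 (-2.90) and wt21 (-4.02), and AT3G05410 in CG against wt21 in ago5 sperm (0.0261), ago59 sperm (0.0293), ago9 stem (0.450) and ago59 stem (-0.138). Elements at least 50% inside and Clopper-Pearson intervals moved no result.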
